A study of Mus musculus with 6 samples.

Results

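Axin2, Sp5, Notum, Tnfrsf19, Fzd7, Ror2 and Wnt3a are 4 targets, 2 receptors and 1 ligand of WNT signalling, and their levels were compared in mouse stem cells and in germ cell-like cells made with cytokines or with Nanog alone. All probes annotated to these 7 genes were taken, which gave 7 probes, 1 per gene. Of 45281 probes on the array only 10057 carry 1 gene symbol in the annotation used. Each of those was detected on at least 1 array, so other probes of these genes may be on the array without a name. Each passed the filter on dim probes, so the 7 genes are among 6823 genes tested. The 7 genes were picked with the group differences on these same arrays in view, so their differences are given as a description. No test result is read from them.

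Total RNA was measured on Illumina BeadChips in 3 groups of 2 arrays, all from male cells of the strain 129 x MF1 that carry a Nanog transgene. The mouse embryonic stem cells (mESCs) were kept on fibronectin in N2B27 medium with 1000 U/ml of LIF and 2 inhibitors, 3 µM of CHIR99021 against GSK3 and 1 µM of PD0325901 against MEK. Primordial germ cell-like cells (PGCLCs), which model in culture the cells that give rise to sperm and eggs, were made from epiblast-like cells in GK15 medium and collected on day 4. Cytokine PGCLCs received 500 ng/ml of BMP4, the same of BMP8A, 100 ng/ml of SCF, 50 ng/ml of EGF and 1000 U/ml of LIF. Nanog PGCLCs received doxycycline at 0.7 µg/ml, which switches on the Nanog transgene, and no cytokine is listed for them. The GSK3 and MEK inhibitors are listed for the mESCs only, and the medium differs from that of the PGCLCs. Cell state, each inhibitor and medium thus cannot be told apart in any comparison with mESCs. The labels give neither a sort of the PGCLCs nor the number of clones or cultures, so the spread between the 2 arrays of a group may be technical.

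In canonical WNT signalling a WNT ligand binds a Frizzled receptor with an LRP co-receptor, which stops the destruction complex, with its kinase GSK3, from marking beta-catenin for breakdown. Beta-catenin then joins TCF/LEF proteins on DNA and raises the transcription of target genes, several of which feed back on the pathway. CHIR99021 blocks GSK3 and so turns on this branch without a ligand, which helps to keep mESCs in the naive state. In the mouse embryo WNT3 signalling makes epiblast cells able to answer BMP4 and become germ cells.

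Median raw intensity ran from 226.2 to 294.3 over the 6 arrays, and 8788 to 10028 probes were detected (detection p below 0.01 against the negative controls). Normalized log2 intensities of replicate arrays correlated across genes at 0.991 to 0.994, and genes are not independent replicates. All 5 germ cell markers (Tfap2c, Nanos3, Dnd1, Dppa3 and Prdm14) were detected on both arrays of both PGCLC groups. Their summed normalized intensity was 2524 to 2684 in mESCs, 11311 to 11670 in cytokine PGCLCs and 9509 to 10022 in Nanog PGCLCs. Of 5 pluripotency markers (Pou5f1, Zfp42, Esrrb, Tdgf1 and Sall4), 4 were detected on both arrays of mESCs, 4 in cytokine PGCLCs and 5 in Nanog PGCLCs. The 3 listed embryonic globin genes were detected only on the cytokine PGCLC arrays, where their summed intensity was 1611 to 1644, against 190.1 to 201.2 in mESCs and 154.2 to 174.7 in Nanog PGCLCs. Of 3 neural markers 1 was tested, Nes, which was detected in mESCs (7.16 and 7.58, normalized log2) and cytokine PGCLCs (7.03 and 7.25) but not in Nanog PGCLCs (6.50 and 6.26). None of the listed fibroblast, primitive streak, endoderm or trophoblast markers had a named probe that passed the filter. The labels do not say whether the cells were sorted, and fewer cells of a type and less RNA per cell cannot be told apart.

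RefSeq promoter windows (GRCm38.p6, 250 bases before to 50 bases after an annotated start) were on hand for 6 of the 7 genes, all but Notum. They were searched on both strands for the TCF/LEF word CTTTGNN, where each N was A or T, which 16.9% of all 32851 windows hold at least once and 1.94% at least 2 times. Among the 7180 windows of the genes tested here the shares were 11.4% and 1.09%. Sp5 held 2 such words, at 222 and 104 bases before its start, Fzd7 held 1 and the second of the 2 Tnfrsf19 windows held 1. The windows of Axin2, Ror2 and Wnt3a and the first Tnfrsf19 window held none, which says only that these letters are not in these windows. The windows of 4 genes are printed to set the targets Sp5 and Axin2 beside the receptor Fzd7 and the ligand Wnt3a, with TCF/LEF words in capitals.
Sp5, chr2:70474673-70474972, + strand: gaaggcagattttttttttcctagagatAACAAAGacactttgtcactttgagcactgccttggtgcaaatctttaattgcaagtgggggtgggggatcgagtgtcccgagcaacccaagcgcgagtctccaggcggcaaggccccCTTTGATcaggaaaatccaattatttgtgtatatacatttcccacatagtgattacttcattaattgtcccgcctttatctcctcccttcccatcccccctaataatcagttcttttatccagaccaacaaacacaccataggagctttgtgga
Axin2, chr11:108920099-108920398, + strand: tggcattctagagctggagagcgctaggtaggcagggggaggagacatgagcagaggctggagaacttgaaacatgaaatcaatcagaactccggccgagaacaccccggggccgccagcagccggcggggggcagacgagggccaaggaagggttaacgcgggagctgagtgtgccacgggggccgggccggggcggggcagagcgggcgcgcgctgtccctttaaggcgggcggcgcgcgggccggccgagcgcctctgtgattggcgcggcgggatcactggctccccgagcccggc
Fzd7, chr1:59481897-59482196, + strand: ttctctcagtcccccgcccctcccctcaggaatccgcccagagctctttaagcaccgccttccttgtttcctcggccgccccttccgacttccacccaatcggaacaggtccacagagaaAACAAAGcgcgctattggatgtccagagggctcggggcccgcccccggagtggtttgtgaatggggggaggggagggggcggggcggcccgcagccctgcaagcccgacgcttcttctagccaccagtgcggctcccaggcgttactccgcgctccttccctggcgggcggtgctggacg
Wnt3a, chr11:59290702-59291001, - strand: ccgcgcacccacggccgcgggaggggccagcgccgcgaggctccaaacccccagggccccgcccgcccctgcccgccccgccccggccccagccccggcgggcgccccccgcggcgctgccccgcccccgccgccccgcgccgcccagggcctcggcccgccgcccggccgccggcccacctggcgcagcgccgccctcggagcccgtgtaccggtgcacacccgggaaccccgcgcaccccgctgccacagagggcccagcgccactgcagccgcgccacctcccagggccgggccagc
The Axin2 window lies inside the gene, which is annotated from 108917828 to 108950783. The bases G and C made up 45% of the Sp5 window, 70% of the Axin2 window, 66.7% of the Fzd7 window and 86.3% of the Wnt3a window, against a median of 52.7% over all windows and 60.7% over those of the genes tested. The GC box GGGCGG, the kind of site that Sp family factors bind, was searched on both strands and is in 35.7% of all windows and 64.3% of those of the genes tested. It was absent from the Sp5 window and the first Tnfrsf19 window. It occurred 2 times in the window of Axin2, 3 times in the second of Tnfrsf19, 7 times in that of Fzd7, 5 times in that of Ror2 and 9 times in that of Wnt3a. No GC box overlapped a TCF/LEF word in these windows. A match is a description of the letters, not a binding site.

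**Figure D1:**
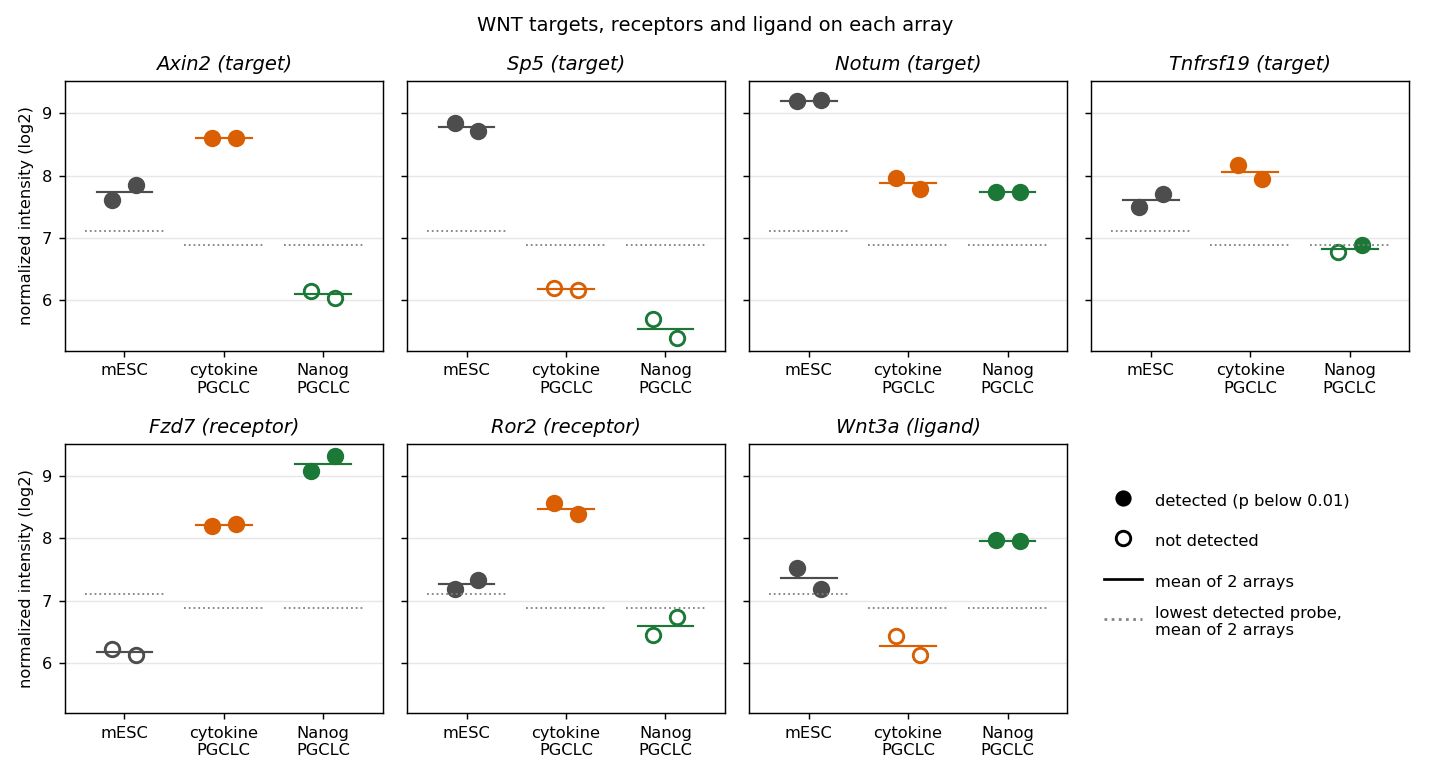
Normalized intensity (log2, vertical axis) of the 7 genes on each of the 6 arrays, by group, with filled points where the probe was detected and open points where it was not. Lines mark the mean of 2 arrays and dotted lines the lowest detected probe. Axin2, Tnfrsf19 and Ror2 were highest in cytokine PGCLCs, Sp5 and Notum in mESCs, and Fzd7 and Wnt3a in Nanog PGCLCs.

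The 4 targets did not share one pattern over the groups. Axin2 and Tnfrsf19 were highest in cytokine PGCLCs and lowest in Nanog PGCLCs, whereas Sp5 and Notum were highest in mESCs. The mESCs, the only group with the GSK3 inhibitor, had the highest level of 2 of the 4 targets. In Nanog PGCLCs all 4 were below their mESC level.

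Axin2, which encodes a scaffold of the destruction complex and is a feedback target of beta-catenin, lies on chromosome 11 (NM_015732). The mESC arrays gave normalized log2 intensities of 7.61 and 7.85, the cytokine PGCLC arrays 8.60 and 8.61 and the Nanog PGCLC arrays 6.15 and 6.03. The arrays of the groups did not overlap, and the probe was not detected on either Nanog PGCLC array. The level in cytokine PGCLCs was above that in mESCs by 0.88 ± 0.11 log2 units (± SE of the fit, n = 2 arrays per group, as for all differences here), or 1.83-fold. Nanog PGCLCs were at least 1.79-fold below mESCs and at least 3.29-fold below cytokine PGCLCs. Such a bound sets the higher group's mean against the weakest detected signal of the other arrays, or the probe's own signal where that is higher. It holds only under the background correction used here and carries no sampling error.

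Sp5, a zinc finger factor of the Sp family that WNT signalling induces, lies on chromosome 2 from 70474923 to 70477726 (NM_022435). On the log2 scale it read 8.84 and 8.72 in mESCs, 6.19 and 6.17 with cytokines, and 5.70 and 5.38 with Nanog. Only the mESC arrays detected it, so Sp5 passed the filter through the group where it is high and had to differ. It was at least 3.71-fold below mESCs in cytokine PGCLCs and at least 3.72-fold below them in Nanog PGCLCs, and no fold is given between the PGCLC groups. Its promoter window is the one printed above with 2 TCF/LEF words and no GC box. Sp8, another member of the Sp family, was detected in every group, and its difference passed the test in none of the 3 comparisons (-0.27, 0.03 and -0.30 log2 units).

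Notum encodes a secreted enzyme that inactivates WNT ligands by removing their lipid, and it lies on chromosome 11 from 120653788 to 120661193 (NM_175263). The log2 intensities were 9.19 and 9.21 in mESCs, 7.96 and 7.79 with cytokines, and 7.74 on both arrays with Nanog. It was the only one of the 7 genes detected on all 6 arrays. It was lower than in mESCs by a log2 difference of -1.33 ± 0.09 in cytokine PGCLCs and -1.46 ± 0.09 in Nanog PGCLCs. Between the PGCLC groups it differed by -0.14 ± 0.09 log2 units.

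Tnfrsf19, a receptor of the TNF receptor family also named TROY, lies on chromosome 14 from 60963834 to 61046855 (NM_013869). It measured 7.50 and 7.71 (log2) in mESCs, 8.17 and 7.95 with cytokines, and 6.77 and 6.88 with Nanog. The groups did not overlap, and 1 of the 2 Nanog PGCLC arrays detected it. The lowest detected probe on those arrays stood at 6.90 and 6.88, so the size of its differences from Nanog PGCLCs is limited by background. Cytokine PGCLCs were above mESCs by 0.46 ± 0.12 log2 units, while Nanog PGCLCs were below mESCs (-0.78 ± 0.12) and below cytokine PGCLCs (-1.24 ± 0.12). Its order over the groups is that of Axin2, with smaller differences.

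The 2 receptors ran in different orders. Fzd7, a Frizzled receptor for WNT ligands, lies on chromosome 1 from 59482147 to 59486955 (NM_008057). The mESC arrays read 6.22 and 6.12 (log2), those of cytokine PGCLCs 8.19 and 8.24, and those of Nanog PGCLCs 9.08 and 9.32. Both PGCLC groups detected it and mESCs did not. Fzd7 thus passed the filter through the groups where it is high, and a difference from mESCs was built in, as for Sp5. It was at least 2.16-fold above mESCs in cytokine PGCLCs and at least 4.29-fold above them in Nanog PGCLCs. Nanog PGCLCs exceeded cytokine PGCLCs by 0.99 ± 0.11 log2 units, or 1.98-fold.

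Ror2, a receptor tyrosine kinase that binds WNT5A and serves branches without beta-catenin, lies on chromosome 13 from 53109317 to 53286124 (NM_013846). Log2 intensity was 7.19 and 7.33 in mESCs, 8.56 and 8.39 with cytokines, and 6.45 and 6.73 with Nanog. It was highest in cytokine PGCLCs, above mESCs by 1.21 ± 0.12 log2 units, and was not detected on the Nanog PGCLC arrays. Cytokine PGCLCs were at least 3.00-fold above Nanog PGCLCs, and mESCs at least 1.30-fold. Wnt5a, which encodes its ligand, was detected in cytokine PGCLCs only, at 7.05 and 6.91 there, against 5.99 and 6.19 in mESCs and 6.22 and 6.18 in Nanog PGCLCs.

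Wnt3a, a ligand of the canonical branch, lies on chromosome 11 from 59248036 to 59290751 (NM_009522), and it ran opposite to Axin2 between the PGCLC groups. Its probe gave 7.52 and 7.19 (log2) in mESCs, 6.43 and 6.12 with cytokines, and 7.97 and 7.96 with Nanog. Cytokine PGCLC arrays did not detect it, and the groups did not overlap. Nanog PGCLCs were above mESCs by 0.61 ± 0.14 log2 units, or 1.52-fold, and at least 2.10-fold above cytokine PGCLCs. The mESCs were at least 1.38-fold above cytokine PGCLCs.

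**Figure D2:**
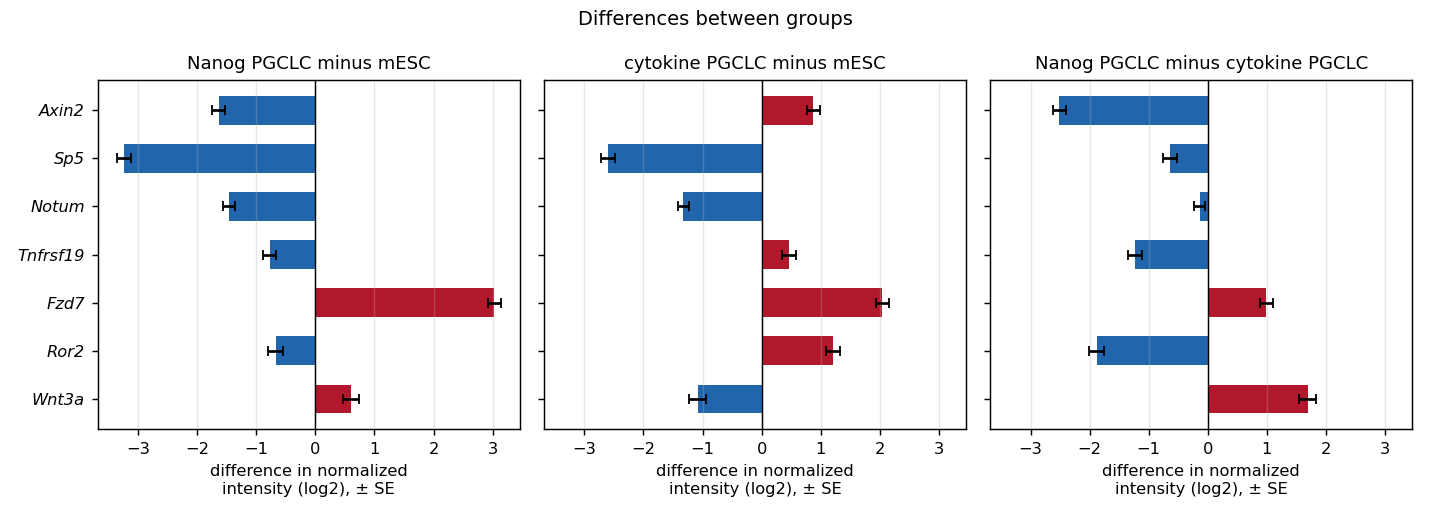
Fitted differences in normalized intensity (log2, horizontal axis) with their standard errors for the 7 genes in the 3 comparisons, 2 arrays per group. Where the lower group did not detect a gene its bar is a fitted value and no bound. Sp5 has the longest bar downward against mESCs and Fzd7 the longest upward, and Axin2, Tnfrsf19, Ror2 and Wnt3a point in opposite directions in the first 2 panels.

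Counted together, the Nanog PGCLCs had 2 of the 7 genes higher and 5 lower than mESCs at the threshold used for all genes (adjusted p below 0.05), where 54.1% of the 6823 genes were called, 28.2% higher and 25.9% lower. Cytokine PGCLCs had 4 higher and 3 lower than mESCs, with 54.7% of all genes called, 29.9% higher and 24.8% lower. Nanog PGCLCs had 2 higher and 4 lower than cytokine PGCLCs, with 22.6% of all genes called, 11.4% higher and 11.1% lower. The arrays of the 2 groups did not overlap for any of the 7 genes in any comparison, as for 78.4%, 78.9% and 63% of all genes. Since the genes were chosen on these contrasts, nothing is read from these counts. The 2 comparisons with mESCs share the mESC arrays. When scaling of the arrays to one median replaced quantile normalization, the median of all genes moved to 0.206, 0.162 and 0.0404 log2 units. The share of calls that were higher then rose from 52.1%, 54.6% and 50.6% to 76.5%, 72.9% and 63.3%, and each of the 7 genes kept its direction in all 3 comparisons relative to that median. Without background correction all 21 differences of the 7 genes shrank to between 0.4 and 0.656 of the values given. In the values the authors deposited 20 of 21 shrank by over 1.5 times, with ratios from 0.427 to 0.675 and no change of direction. Some full differences there fall short of the bounds given above, such as -1.41 log2 units for Sp5 in cytokine PGCLCs against mESCs.

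By the mean level, the order cytokine PGCLC, mESC, Nanog PGCLC that Axin2, Tnfrsf19 and Ror2 follow held for 622 genes (9.12%). Among the 1022 genes whose group means spanned at least 1 log2 unit it held for 45 (4.4%), and the Wnt3a order (Nanog PGCLC, mESC, cytokine PGCLC) held for 28 (2.74%). Fzd7 shared its order with 336 of those genes (32.9%). Of all 6823 genes, 38 (0.557%) were detected on both arrays of mESCs and cytokine PGCLCs and on neither array of Nanog PGCLCs, as Axin2 and Ror2 were. The Sp5 pattern, detected in mESCs alone, was shared by 82 genes (1.2%), and the Wnt3a pattern, not detected in cytokine PGCLCs alone, by 47 (0.689%). The Fzd7 pattern, not detected in mESCs alone, was that of 403 genes (5.91%).

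For each gene the 2 most similar profiles among the other genes tested were found by the root mean square difference of log2 intensities over the 6 arrays, each gene centred on its own mean. Nearest to Wnt3a was Sfrp1 (0.158 log2 units), itself a gene of the pathway that encodes a secreted protein able to bind WNT ligands, followed by Plpp2 (0.190). Axin2 had Ct55 (0.153) and Tnfrsf22 (0.203), another member of the TNF receptor family. Sp5 had Ddah1 (0.155) and the homeobox gene Crxos (0.219). Fzd7 had Pdyn (0.105), which encodes the precursor of dynorphin, and Aif1l (0.214). Ror2 had the netrin receptor gene Unc5b (0.134) and Ttyh1 (0.157). Notum had Ahnak and Nsun2 (0.091 each), and Tnfrsf19 had Zfp951 (0.090) and Lrpap1 (0.119). Within 0.25 log2 units lay 144 genes for Notum, 29 for Tnfrsf19, 8 for Ror2, 7 for Wnt3a, 3 for Fzd7 and 2 each for Axin2 and Sp5. The distance is not scaled for the size of a gene's differences, so these counts do not rank how unusual a profile's shape is.

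**Figure D3:**
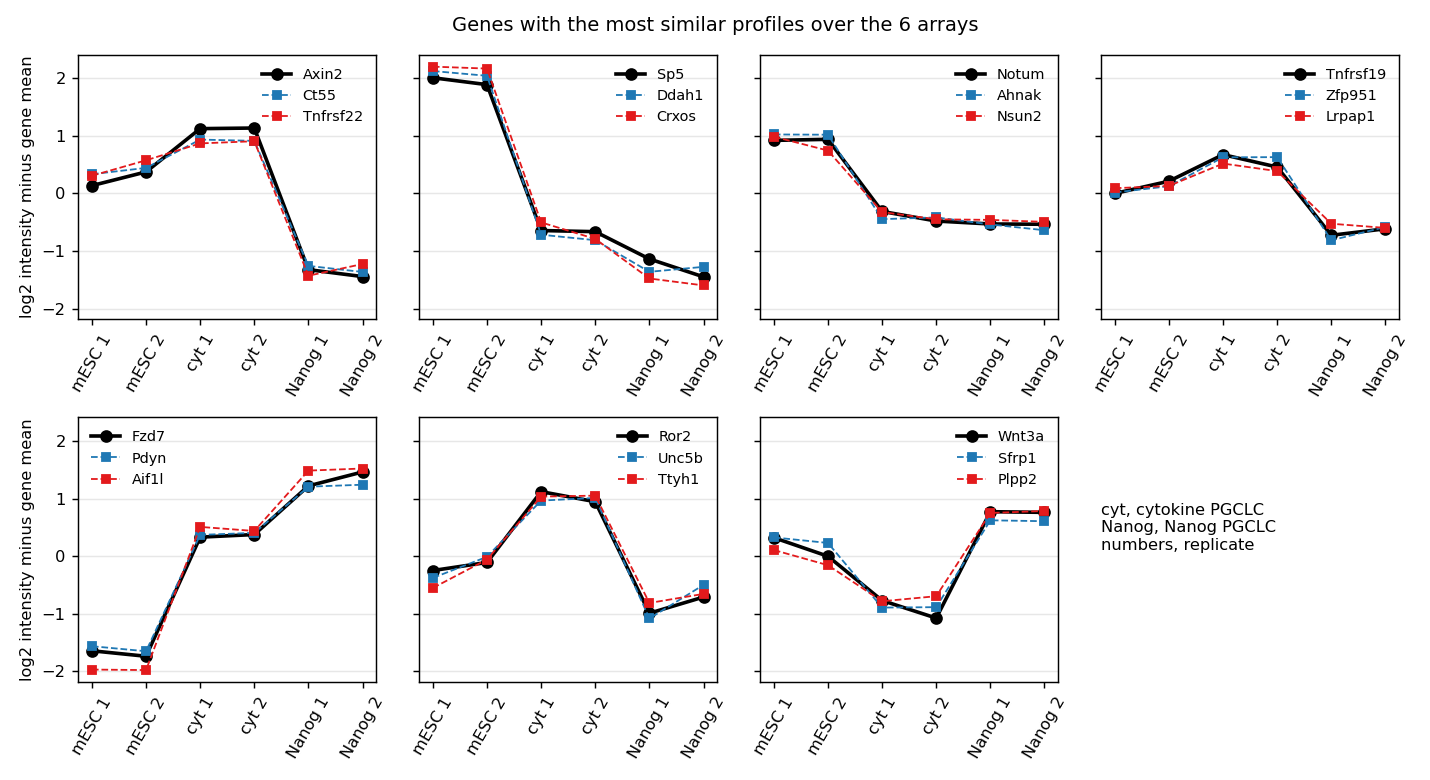
Log2 intensity minus the gene's own mean (vertical axis) over the 6 arrays for each of the 7 genes (black) and the 2 genes with the most similar profile (colours). The Wnt3a and Sfrp1 lines both dip on the 2 cytokine PGCLC arrays, and the Axin2 and Ct55 lines fall on the 2 Nanog PGCLC arrays.

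Of 117 other genes of the pathway, listed by role, 37 were tested. Another 2 had a named probe detected on 1 array only. The other 78 had no named probe here, though they may have probes on the array without a name. Cdx2, Wnt5a, Bcl9 and Prickle2 were detected in cytokine PGCLCs only, and Shisa2 and Celsr3 in Nanog PGCLCs only. Each passed the filter through the group where it is high, as Sp5 did. A difference from that group was thus built in, and those calls and p-values are no separate support. Fzd6 and Frat2 passed it through PGCLC arrays only, and Wls through mESC and cytokine PGCLC arrays only. The filter thus favoured their differences from the group that did not detect them, and those calls are no separate support either. In Nanog PGCLCs against mESCs 24 of the 37 were called (64.9%, against 54.1% of all genes), 13 higher and 11 lower, with a median difference of 0.07 log2 units against -0.0042 over all genes. With median scaling the split was 18 higher and 8 lower. Ccnd1, the cyclin D1 gene and a reported WNT target, was lower at -2.24 ± 0.10 log2 units (limma adjusted p = 1.98e-06), with 11.28 and 11.41 in mESCs and 9.18 and 9.03 in Nanog PGCLCs. Its other 2 probes gave -3.34 and -2.40. Porcn, the enzyme that attaches the lipid WNT ligands need for secretion, was higher by 1.42 ± 0.11 (adjusted p = 2.06e-05), and its other probe gave 0.72. Csnk1e, a casein kinase gene of the pathway, was higher by 1.42 ± 0.09 (adjusted p = 7.14e-06), and Vangl2, a planar polarity gene, was lower at -1.08 ± 0.10 (adjusted p = 5.62e-05). Shisa2, whose protein holds back maturation of Frizzled receptors in Xenopus, was higher at least 1.28-fold (adjusted p = 0.000144).

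By role, 5 of the 10 destruction complex and cytoplasm genes were higher and 3 lower in this comparison, the lower ones being Axin1, Gsk3b and Csnk1d. Among the calls are 2 genes that neither group detected, Bcl9 (higher) and Cdx2 (lower). Of 8 nuclear factors 2 were higher and 2 lower, among the latter Tcf7l1, the TCF that represses targets in stem cells, at -0.78 ± 0.11 (adjusted p = 0.000471). Of 5 receptors Fzd6 was higher, Fzd5 and Fzd10 were lower, and Fzd3 and Ryk were not called. Fzd6 was not detected in mESCs and was detected on 1 array of each PGCLC group. For Fzd10 the brightest probe gave -0.82 log2 units and the others -0.39 and -0.55. The probe at -0.39 was not called (limma adjusted p over probes = 0.0665). The call for Ryk depends on the probe, since its other probe gave -0.28 log2 units (limma adjusted p over probes = 0.0343). Besides Wnt3a, the ligands tested were Wnt5a and Wnt7b, and neither was called. The call for Wnt7b depends on the probe, since its other probe was higher by 0.77 log2 units (limma adjusted p over probes = 0.000676). Wls, which carries WNT ligands to the cell surface, was lower by at least 1.33-fold, opposite to Porcn. Genes of the pathway beyond the 5 largest changes per comparison were named after their values were seen.

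In cytokine PGCLCs against mESCs 25 of the 37 were called (67.6%, against 54.7% of all genes), 15 higher and 10 lower, with a median of 0.14 log2 units against 0.011. With median scaling the split was 19 higher and 8 lower. Cdx2, a caudal homeobox gene of trophoblast and posterior mesoderm and a reported WNT target, was higher at least 2.58-fold (adjusted p = 9.49e-06). Its log2 intensity was 6.56 and 6.39 in mESCs, where it was not detected, and 8.51 and 8.43 in cytokine PGCLCs. Only the cytokine PGCLC arrays detected Cdx2, so the filter built this difference in. Porcn was higher by 1.89 ± 0.11 (adjusted p = 5.36e-06), and Ccnd1 was lower at -1.44 ± 0.10 (adjusted p = 1.34e-05). Sfrp1 was lower at -1.17 ± 0.09 (adjusted p = 2.11e-05) and Tcf7l1 at -1.04 ± 0.11 (adjusted p = 0.000104). Of 8 nuclear factors 4 were higher, among them Bcl9 and Bcl9l, which link beta-catenin to its co-activators, and 2 were lower. The embryonic globins were at least 3.38-fold (Hba-x), 4.94-fold (Hbb-bh1) and 3.51-fold (Hbb-y) above mESCs on the same arrays. The part of these globins, and of Nes, in the levels of Axin2, Tnfrsf19, Ror2 and Cdx2 was not tested.

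In Nanog PGCLCs against cytokine PGCLCs, which differ in how they were induced, 17 of the 37 were called (45.9%, against 22.6% of all genes). Of these, 7 were higher and 10 lower, and the median over the 37 was -0.11 log2 units against -0.020 over all genes. Among the 17 are Cdx2, Wnt5a, Bcl9, Prickle2, Shisa2 and Celsr3, each detected in 1 PGCLC group only, whose differences the filter built in. The share of 45.9% thus includes calls that the filter favoured and is not read against the 22.6%. Without cytokine PGCLC replicate 1 the count was 9 (with 9.29% of all genes called), without cytokine PGCLC replicate 2 it was 10 (9.91%), and without Nanog PGCLC replicate 1 it was 11 (12.7%). Without Nanog PGCLC replicate 2 it was 12 (12.3%). Cdx2 was lower by at least 3.00-fold (adjusted p = 1.18e-05) and was not detected in Nanog PGCLCs (5.77 and 6.10). Fzd10, a Frizzled receptor, was lower at -1.82 ± 0.10 (adjusted p = 2.05e-05), with 8.22 and 8.05 in Nanog PGCLCs against 10.04 and 9.87. Its other probes gave -0.67 and -0.61, so the size depends on the probe. Fzd10 thus ran against Fzd7, which was higher in Nanog PGCLCs.

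Beside Notum, described above, 2 antagonists were tested, and both were higher in Nanog than in cytokine PGCLCs. Sfrp1 was higher by 1.50 ± 0.09 (adjusted p = 2.36e-05), with 8.92 and 8.91 against 7.41 and 7.42, and its other probe gave 1.34. Shisa2 was higher at least 1.48-fold (adjusted p = 0.000181). Csnk1e was higher by 0.88 ± 0.09 (adjusted p = 0.000325). Both genes of ligand secretion, Porcn and Wls, were lower, and of the 2 ligands besides Wnt3a, Wnt5a was lower, by at least 1.07-fold (adjusted p = 0.00161). Ctnnb1, the beta-catenin gene, was lower at -0.45 ± 0.11 (adjusted p = 0.0227). Its other probes gave -0.42 and 0.11 log2 units, the latter not called (adjusted p over probes = 0.760). Of the 3 other targets Ccnd1 and Cdx2 were lower and Sp8 was not called. Gsk3b, Axin1 and Csnk1d were not called between the PGCLC groups.

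**Figure D4:**
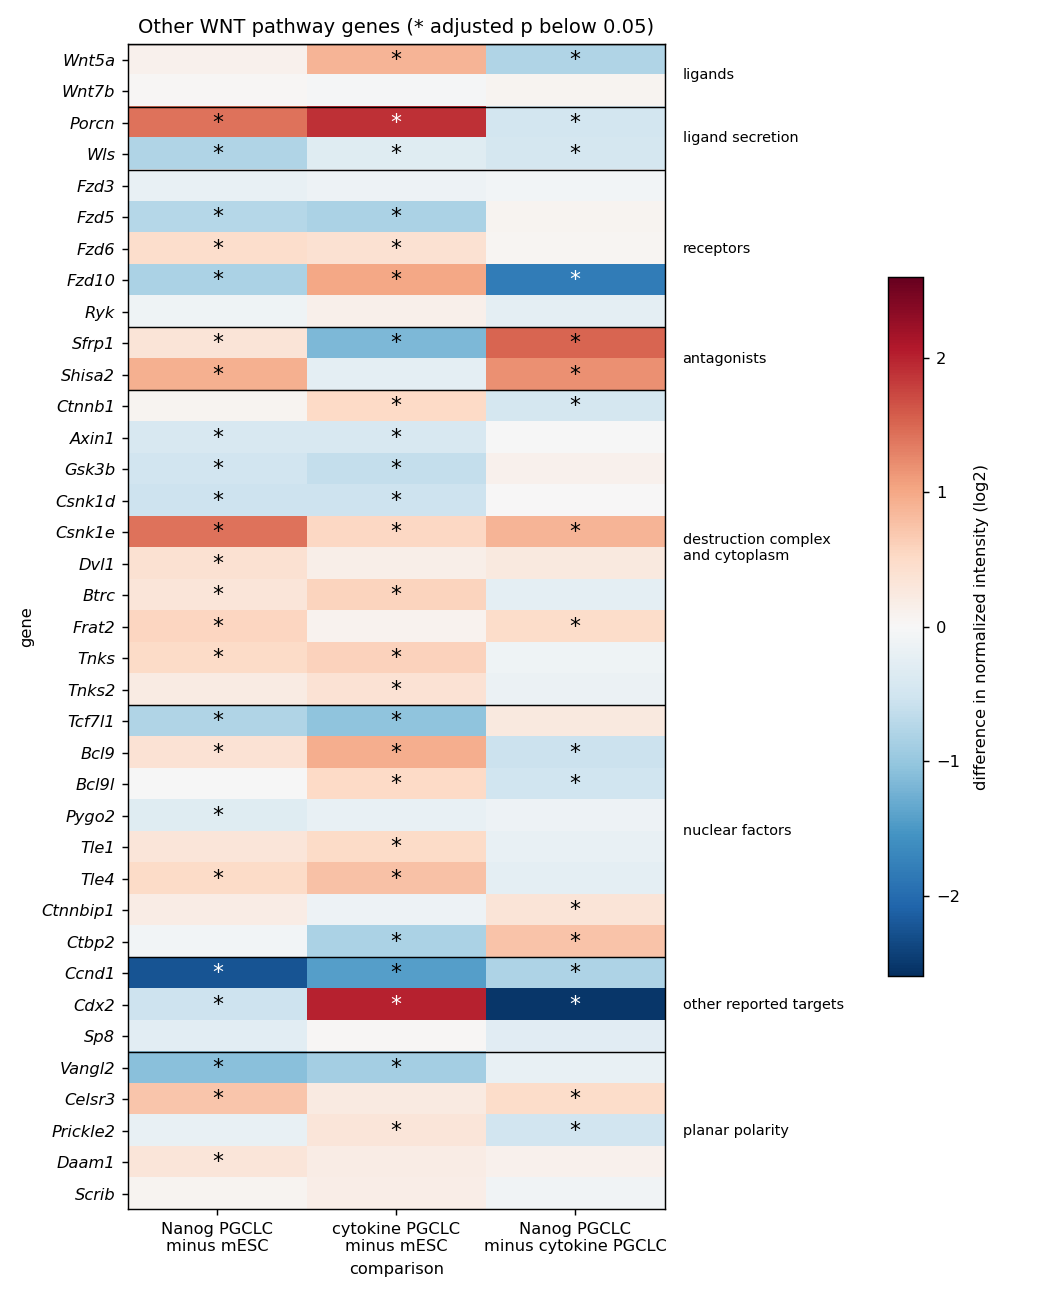
Difference in normalized intensity (log2, colour) of the 37 other WNT pathway genes tested (rows, by role) in the 3 comparisons (columns), with a star where the adjusted p was below 0.05. Ccnd1 is blue in all 3 columns, and Cdx2 and Fzd10 are red in the second column and blue in the others.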

How the data were processed

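Illumina mouse BeadChips measured 6 samples, 2 per group, grouped by their labels. The deposited intensity values, 1 per probe and array, were not normalized between arrays, as their medians differ. The detection p-values that the authors deposited place a probe among the negative controls, per the file headers. The authors' value table holds log2 values with one common distribution over the 6 columns, and the submitters' processing notes name limma without saying how background was treated. Neither slide nor scan date is given.

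Here intensities were background corrected with normexp from the detection p-values (limma 3.58.1, R 4.3.3, offset 16), quantile normalized and taken to log2. Probes with detection p below 0.01 on at least 2 of 6 arrays and 1 gene symbol in the platform annotation were kept, and each gene was read by its brightest probe (6823 genes). One limma model of the 3 groups (3 residual and 5.16 prior degrees of freedom) gave two-sided tests with Benjamini-Hochberg adjustment over all genes, called below 0.05. The fit was tested on simulated data. Named pathway genes were, per comparison, the 5 called genes with the largest difference among those detected on both arrays of the higher group. Members and lists were chosen with earlier results of these data known. Coordinates and promoter windows came from RefSeq (GRCm38.p6), by symbol, and all 7 genes matched by Entrez identifier. Alternatives changed background, offset, scaling, filter, probe rule, variance trend, replicate block and arrays, or used the authors' values.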

Additional observations from a re-analysis of the deposited data

How the results depend on the processing

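Under 16 alternatives all 336 differences of the 7 genes kept their direction. The numbers of genes above and below 0 stayed at 2 and 5 (Nanog PGCLC against mESC), 4 and 3 (cytokine PGCLC against mESC) and 2 and 5 (Nanog against cytokine PGCLC). Many of these outcomes were fixed in advance. The filter, probe rule, variance trend and replicate block leave these differences unchanged, and dropping 1 array cannot reverse groups that do not overlap. Only changes of background, offset or scaling, or the authors' values, could reverse a direction. The named pathway genes kept direction and call in all 240 of their values. They were picked as the largest calls on these same arrays, so this outcome was favoured in advance. Calls among the other pathway genes ran from 19 to 26, 21 to 27 and 9 to 18 in the 3 comparisons, against 24, 25 and 17. Leaving out 1 array at a time gave 9 to 17 pathway genes and 634 to 1590 of all genes called between the PGCLC groups, against 17 and 1539; fewer arrays leave fewer degrees of freedom, and the lone array of a group is assumed to vary like the others. Without cytokine PGCLC replicate 1 or 2 and without Nanog PGCLC replicate 1 or 2 the counts over all genes were 634, 676, 868 and 841. Every named probe was detected on at least 1 array, so dropping the filter and requiring 1 array gave the same 7312 genes. Arrays with the same replicate number did not deviate together (r across genes 0.036, 0.079 and -0.0037), so the numbers are not taken as pairs. With the replicate block 3699, 3731 and 1517 of all genes and 25, 25 and 17 pathway genes were called. Signal over background limits Sp5, Fzd7, Axin2, Ror2 and Wnt3a, each not detected in at least 1 group. Each passed the filter through the groups that detected it, which favoured a difference from the rest. Tnfrsf19 was also limited in Nanog PGCLCs, where 1 of the 2 arrays detected it.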

Other observations

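Some pathway genes were read by several probes that differed, and these values are given without explanation. For Fzd10 in cytokine PGCLCs against mESCs the brightest probe gave 1.00 log2 units and the others 0.29 and 0.07, the latter 2 not called (adjusted p over probes = 0.153 and 0.733). For Ctnnb1 in the same comparison the probes gave 0.52, 0.44 and -0.56, with the last not called (adjusted p over probes = 0.0581). The 5 probes of Csnk1d gave -0.54, -0.50, -0.59, 0.06 and -1.07 there. The 3 probes of Tle1 gave 0.50, -0.32 and 0.40 there, with the last not called. Ryk was not called by its brightest probe in any comparison. Its other probe was called in all 3, at -0.28 and 0.28 against mESCs (Nanog, then cytokine PGCLCs) and -0.56 between the PGCLC groups. For Daam1 in Nanog PGCLCs against mESCs the 2 probes gave 0.31 and -0.30, both called. Each of the 7 genes above was read by 1 probe, so no second probe stands beside its values.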
